A study of Mus musculus with 6 samples.

Results

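The study's table of gene expression was searched for 10 genes of glucose uptake and glycolysis, which were followed through the maturation of the mouse retina: the glucose transporter Slc2a1, the hexokinases Hk1 and Hk2, the phosphofructokinases Pfkm and Pfkp, the aldolases Aldoa and Aldoc, the enolase Eno2 and the lactate dehydrogenases Ldha and Ldhb. They were taken by gene symbol from a table of 30042 genes, all 10 were found in it, and all 10 had a highest value of at least 1 RPKM (reads per kilobase of gene length, scaled to the depth of the library). Each of the 6 ages is represented by 1 library of whole retina: E16.5, that is embryonic day 16.5, and P1, P3, P7, P14 and P28, where P counts days after birth. All mice were wild type, of strain 129/Sv; C57/BL6J, and the labels give neither their sex nor how many animals went into a library. The series title concerns the deiodinases of thyroid hormone and the loss of cones, the photoreceptors of colour vision, and the wild-type libraries give the normal course against age.

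Glycolysis splits glucose into pyruvate, and several of its steps are run by alternative enzymes, isozymes, each encoded by its own gene and used to a different extent from tissue to tissue. Adult retina is known for aerobic glycolysis: its photoreceptors take up much glucose and release much of it as lactate although oxygen is present. Hexokinase traps glucose in the cell, phosphofructokinase commits it to glycolysis, aldolase splits the resulting sugar, enolase makes the precursor of pyruvate, and lactate dehydrogenase converts pyruvate to lactate and back.

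The libraries were of unequal depth, between an estimated 12902000 reads at P1 and 28904000 at P14, so that 1 read in a gene of 2 kb was worth 0.0388 to 0.0173 RPKM. The thinnest value of the 10 genes, Aldoc at P1, rests on an estimated 36 reads (counting error 16.6%), and outside Aldoc the counting error was at most 7.47%. Markers of retinal cells followed the ages: 8 of 8 rod markers rose, their sum going from 45.4 to 7921 RPKM over the 6 ages, and 6 of 6 markers of proliferating progenitors fell, with sums of 964, 1017, 530, 48.1, 6.70 and 24.9 RPKM from E16.5 to P28. The P28 sum was thus above that of P14, with Fgf15 at 0.307 RPKM at P14 and 7.03 at P28. The sum over 6 red blood cell genes was 138 RPKM at E16.5 and 2.46 to 16.1 at the other ages, with Hemgn listed at 0 at E16.5, and the sum over 6 lens genes was 36.9 at E16.5, 14.7 at P1, 22.9 at P28 and 0.597 to 1.41 at P3, P7 and P14. The 7 skeletal muscle genes, relevant because Pfkm and Aldoa are the muscle forms, summed to 1.83 to 4.15 RPKM. In whole tissue, fewer cells of a type and less RNA per cell cannot be told apart, and the part of changing cell makeup in the results that follow was not tested.

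The promoters of 6 genes are shown, each as the 250 bases before a RefSeq start site (build GRCm38.p6). The first 4 belong to genes chosen because they were at least 1 log2 unit lower at P1 than at E16.5, and the last 2 to genes that started low and ended high. Capitals mark ACGTG, the core of the element bound by hypoxia-inducible factors and also the inner part of the E-box, GCGTG, the other form of that core, and TAATCC, the element bound by the photoreceptor factor Crx, on either strand; overlapping matches run together.
Slc2a1 (chr4:119108495-119108744, plus strand): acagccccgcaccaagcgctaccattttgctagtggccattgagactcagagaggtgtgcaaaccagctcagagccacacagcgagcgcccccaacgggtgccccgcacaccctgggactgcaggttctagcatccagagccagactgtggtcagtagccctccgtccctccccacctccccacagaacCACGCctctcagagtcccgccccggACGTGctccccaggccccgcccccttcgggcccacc
Hk2 (chr6:82774455-82774704, minus strand): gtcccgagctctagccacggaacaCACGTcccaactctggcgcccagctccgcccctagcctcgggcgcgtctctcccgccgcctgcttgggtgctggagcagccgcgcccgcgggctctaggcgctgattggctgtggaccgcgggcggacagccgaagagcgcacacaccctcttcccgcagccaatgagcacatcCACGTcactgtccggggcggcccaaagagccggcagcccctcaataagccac
Aldoa (chr7:126799179-126799428, minus strand): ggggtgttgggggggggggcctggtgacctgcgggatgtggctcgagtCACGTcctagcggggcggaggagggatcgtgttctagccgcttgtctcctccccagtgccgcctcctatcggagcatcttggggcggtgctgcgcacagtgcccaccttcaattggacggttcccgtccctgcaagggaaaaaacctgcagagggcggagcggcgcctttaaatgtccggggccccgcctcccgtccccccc
Ldha (chr7:46845554-46845803, plus strand): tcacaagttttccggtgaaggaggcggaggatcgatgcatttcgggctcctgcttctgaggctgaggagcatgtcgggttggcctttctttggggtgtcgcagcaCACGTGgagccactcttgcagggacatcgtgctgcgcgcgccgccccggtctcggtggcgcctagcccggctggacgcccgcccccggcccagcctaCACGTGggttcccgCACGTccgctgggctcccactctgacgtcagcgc
Aldoc (chr11:78322823-78323072, plus strand): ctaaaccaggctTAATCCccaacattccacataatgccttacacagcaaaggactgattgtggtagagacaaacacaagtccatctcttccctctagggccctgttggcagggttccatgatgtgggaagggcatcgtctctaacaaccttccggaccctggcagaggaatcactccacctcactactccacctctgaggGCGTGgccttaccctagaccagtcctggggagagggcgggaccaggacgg
Eno2 (chr6:124769674-124769923, minus strand): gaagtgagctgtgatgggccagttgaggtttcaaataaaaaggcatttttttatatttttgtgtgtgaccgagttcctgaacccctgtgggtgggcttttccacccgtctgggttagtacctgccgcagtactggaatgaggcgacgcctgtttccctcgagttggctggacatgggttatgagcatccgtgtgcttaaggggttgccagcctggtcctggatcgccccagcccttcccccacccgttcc

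Sequences were at hand for all 10 genes, at 18 start sites. ACGTG stood in 7 of the 18 windows, which belong to 5 genes (Slc2a1, Hk2, Pfkm, Aldoa and Ldha), against 16.6% of 32851 RefSeq windows of the same length. ACGTG or GCGTG stood in 14 of the 18, against 38.6%, and TAATCC in 4 of the 18, against 6.25%. The windows are not independent, since start sites of Aldoa and of Pfkm overlap, and their GC content ran from 36.4% to 69.6%. The Ldha window shown held 5 matches of ACGTG, strands counted apart, the nearest 34 bases before the start. Those at 145 and 144 bases are the same CACGTG read on opposite strands, as are those at 48 and 47. The other Ldha window held no ACGTG, the other Aldoc window held no TAATCC, and the Eno2 window held none of the 3 motifs. Of the Aldoa windows not shown, the overlapping window held an ACGTG and the other held none of the 3 motifs. A match describes letters and not binding.

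**Figure D1:**
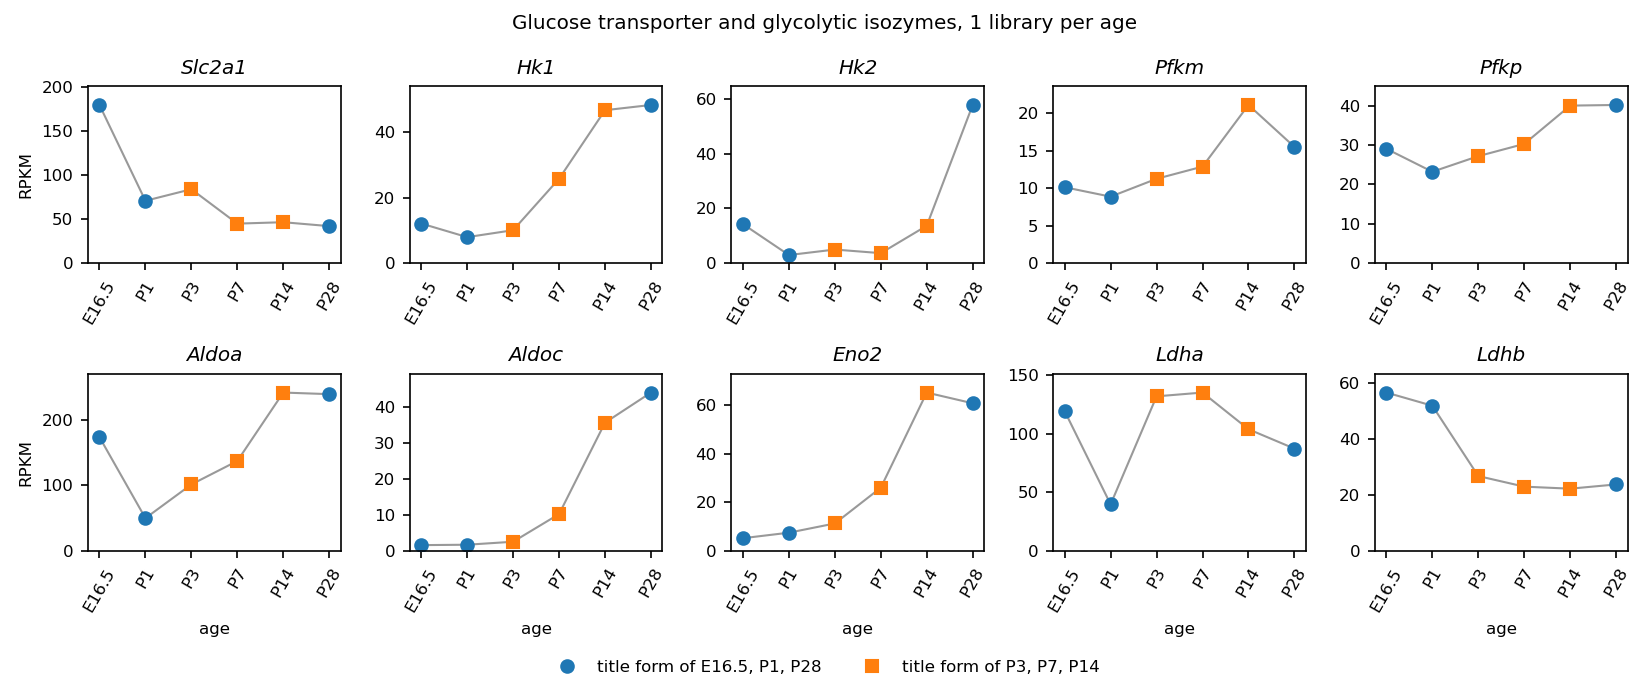
RPKM (y axis, linear from 0) of each of the 10 genes against age (x axis), 1 library per age; circles and squares mark the 2 forms of library title. Aldoc, Eno2 and Hk1 climb from P3 to P14, Hk2 stands at 57.8 RPKM at P28, Slc2a1 and Ldhb are highest at E16.5, and Ldha and Aldoa have their lowest value at P1.

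With 1 library per age, ages could not be tested against each other in pairs. The test asked whether log2(RPKM + 1) followed a straight line over age order 1 to 6, fitted with limma over 15272 genes with a highest value of at least 1 RPKM, p-values being adjusted after Benjamini and Hochberg and called under 0.05. Slopes are in log2 units per age step ± SE, with 4 residual degrees of freedom, and differences between 2 ages are given as ratios of RPKM without a test. Of the 10 genes 4 rose (Hk1, Pfkm, Aldoc and Eno2), where 15.2% of all tested genes rose. Slc2a1 and Ldhb fell, 2 of 10, where 29.9% of all tested genes fell, and the other 4 (Hk2, Pfkp, Aldoa and Ldha) did not pass. The median slope of the 10 genes was 0.23, and that of all tested genes was -0.06. Calls are given below also where they differ under an alternative: one of 2 rescalings between libraries (median of ratios, or a common total without the 50 genes of highest mean), another low-value filter or pseudocount, age in log2 days, a term for the 2 forms of library title, or 1 library left out.

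Slc2a1 encodes the main glucose transporter of neural retina, of its vessels and of the pigment epithelium. It was at 180, 70.7, 83.9, 44.8, 46.4 and 41.96 RPKM in the libraries from E16.5 to P28. The E16.5 library stood above all others, and the 3 oldest libraries lay close together. Slc2a1 fell with age (slope -0.37 ± 0.09, limma adjusted p = 0.0123), lower in 3 of 5 steps, and the P28 value was 0.234 times the E16.5 value. The fall was not called without E16.5 (slope -0.23, adjusted p = 0.0820, within a range of 0.0101 to 0.0820 over its alternatives), the library in which the red blood cell genes were also highest, whose part in the fall was not tested. Of 13 glucose transporter genes 8 were tested, and beside Slc2a1 only Slc2a13, a transporter of myo-inositol, was called: it rose from 0.833 RPKM before birth to 4.24 at the oldest age (slope 0.32 ± 0.07, adjusted p = 0.00856, and 0.0534 without P28). Slc2a3, the high-affinity transporter of neurons, was at 4.69 RPKM before birth and then, library by library, at 2.18 (P1), 3.55 (P3), 4.94 (P7), 8.30 (P14) and 7.55 (P28) and did not pass as deposited (slope 0.23, adjusted p = 0.0571), but did with either rescaling between libraries (adjusted p 0.0379 and 0.0205) and without E16.5 (0.0103). Slc2a1 made up 91.8% of the summed RPKM of these 13 transporter genes at E16.5 and 63.0% at P28.

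The hexokinase step changed its leading gene more than once. Hk1, the hexokinase of most neurons, was at 12.1 RPKM at E16.5 and, in order from P1 to P28, at 7.91, 10.03, 25.7, 46.6 and 48.2. The 3 youngest libraries were all below the 3 oldest. Hk1 rose with age (slope 0.52 ± 0.10, adjusted p = 0.00659), higher in 4 of 5 steps, and its largest step was between P3 and P7, 2.56 times. Hk2, the hexokinase of insulin- and hypoxia-responsive tissues that adult mouse photoreceptors also use, was at 14.3, 2.94, 4.95, 3.63, 13.6 and 57.8 RPKM in the libraries from E16.5 to P28. Its P28 value stood far above the other 5, and P1, P3 and P7 were the low ones. Among all tested genes of a library it stood at the 35.8th percentile at P1 and the 98.6th at P28. P28 was 4.24 times P14, a difference of 2.01 on the log2(RPKM + 1) scale that ranked 17 of 15272 tested genes, of which 1.19% were higher by at least 1 log2 unit. Progenitor and lens markers were also higher at P28 than at P14, as given above. Hk2 at P28 was 4.05 times its E16.5 value. Its share of hexokinase RPKM at P28 was 53.3% after a 2% trace of the E16.5 library was subtracted, against 53.2% as deposited. The 2% was a fixed setting and was not estimated from the markers. With Hk2 at 14.3 RPKM at E16.5, it could hardly move this share, and a trace of another size or source was not tested.

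The straight line did not describe Hk2. Its slope was 0.43 ± 0.24 (adjusted p = 0.174, 0.0160 to 0.972 over its alternatives), 0.01 without P28 and 0.91 without E16.5 (adjusted p = 0.0160), and when the form of the library title was added to the model it passed (slope 0.57, adjusted p = 0.0444). A quadratic term in limma, which measures a low middle between high ends, was 0.43 ± 0.06 for Hk2 with adjusted p = 0.0822 (0.0822 to 0.361 over its alternatives). At this setting 0 of 15272 genes passed for the quadratic term, although 2858 genes had an unadjusted p under 0.05, of the 10 genes only Hk2.

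Hkdc1, a further hexokinase gene, had the reverse course: 5.32, 12.2, 25.2, 9.75, 2.49 and 1.08 RPKM from E16.5 to P28. It was highest where Hk2 was low, and neither its slope (-0.43 ± 0.21, adjusted p = 0.125) nor its quadratic term (-0.35, adjusted p = 0.145) passed, although its slope did without E16.5 (-0.82, adjusted p = 0.0192) and with the title term (-0.55, adjusted p = 0.0326). Hk3 stayed between 0.01998 and 0.0993 RPKM.

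Shares of the summed RPKM within a step do not depend on scaling between libraries. RPKM being per length, they can be set beside each other only where the reads of each gene were counted alike. This is uncertain for genes that share sequence with others, as given below for enolase and lactate dehydrogenase. Among the hexokinases, Hk1 shared 1.64% of its 50-base stretches with another gene, and Hk2 and Hkdc1 shared none. Hk2 held 40.5% of hexokinase RPKM at E16.5, 11.6% at both P1 and P3, then 8.92%, 21.2% and, at P28, 53.2%. Hkdc1 held 15.1%, 48.0%, 59.0%, 23.9%, 3.88% and 0.993% at the same ages, and Hk1 held 34.2%, 31.2%, 23.5%, 63.1%, 72.6% and 44.4%. The leading gene was thus Hk2 at E16.5, Hkdc1 at P1 and P3, Hk1 at P7 and P14, and Hk2 again at P28. The summed hexokinase RPKM was 35.3 at E16.5 and then 25.4, 42.8, 40.7, 64.2 and 108.6 in order of age.

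**Figure D2:**
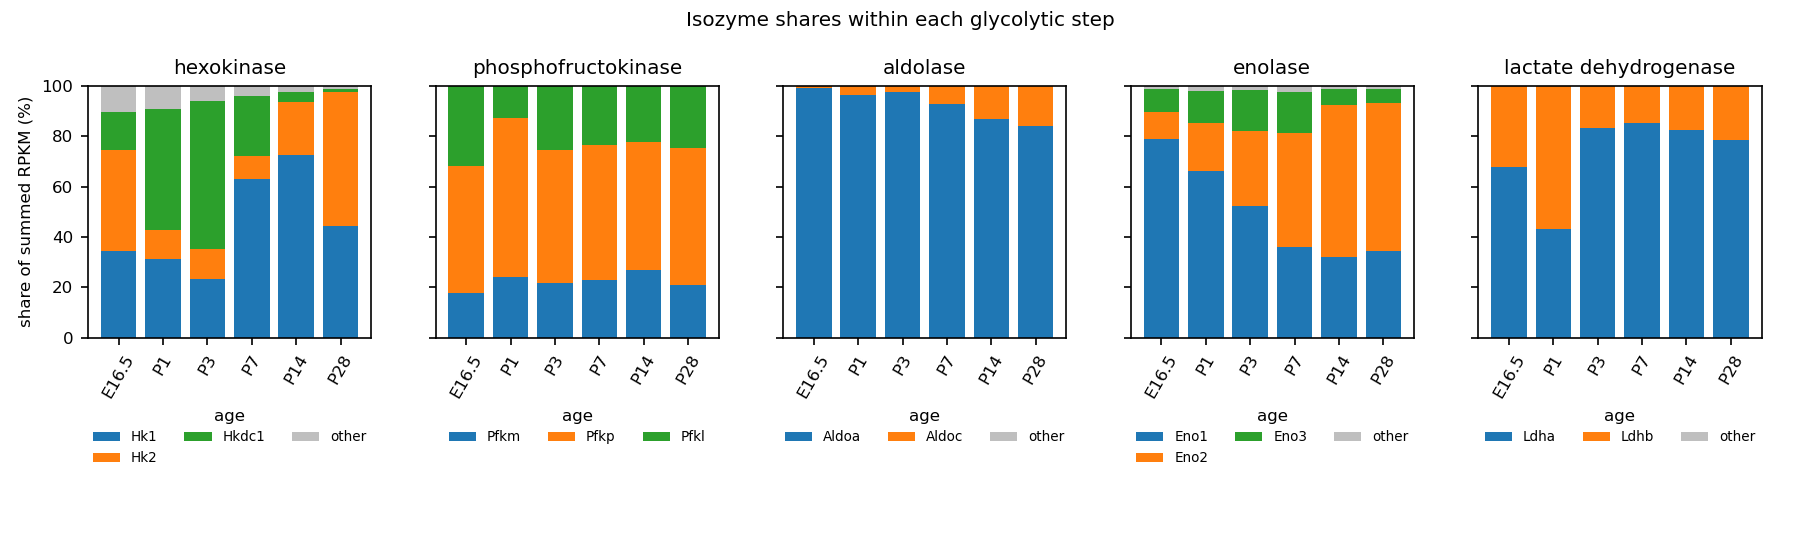
Stacked bars of the share (%) of each isozyme gene in the summed RPKM of its step (y axis) by age (x axis), 1 library per bar, with the remaining genes of a step drawn together as other. The hexokinase bars change their leading gene 3 times, and the lactate dehydrogenase bar at P1 differs from those around it. As listed, the enolase bars pass from Eno1 (79.0% at E16.5) to Eno2 (60.5% at P14), the level of Eno1 being uncertain.

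Phosphofructokinase showed little change of balance between Pfkm and Pfkp. Pfkm, the muscle form, was at 10.1 RPKM before birth and then, library by library, at 8.88 (P1), 11.3 (P3), 12.9 (P7), 21.1 (P14) and 15.5 (P28), and Pfkp, the platelet form, at 29.1, 23.2, 27.2, 30.3, 40.1 and 40.2. Pfkp was above Pfkm in every library, by 1.90 to 2.87 times. Pfkm rose (slope 0.19 ± 0.06, adjusted p = 0.0390), higher in 3 of 5 steps, and Pfkp missed the threshold (slope 0.13 ± 0.06, adjusted p = 0.0843). The call for Pfkm was lost in 8 of 13 alternatives (adjusted p 0.0124 to 0.102), among them leaving out E16.5 (0.0566), P1 (0.101), P3 (0.0610), P7 (0.0548) or P14 (0.102), and Pfkp was called with either rescaling (0.0346 and 0.0168) and without E16.5 (0.0375). Pfkl, the liver form, was at 18.3 RPKM at E16.5, at 4.73 at P1 and at 13.0 to 18.3 from P3 on (slope 0.15, adjusted p = 0.367, and 0.0277 without E16.5), and its share of the step was 31.9% at E16.5, 12.8% at P1 and 22.4% to 25.3% later. Reads of Pfkp cannot be told from those of its neighbour Pitrm1 where both transcripts overlap, 15.4% of the 50-base stretches of its transcripts, since the sources used here do not say whether counting used strand.

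Aldoc, the aldolase of brain and of glia, changed more than any other of the 10 genes. It was at 1.55 RPKM at E16.5 and, in order from P1 to P28, at 1.66, 2.49, 10.2, 35.7 and 44.1. Each library was above the one before it, and the step from P3 to P7 was 4.09 times and from P7 to P14 3.50 times. Aldoc rose (slope 0.96 ± 0.12, adjusted p = 0.00165, 0.00113 to 0.00997 over its alternatives), and P28 was 28.5 times E16.5. Aldoa, the ubiquitous and muscle form, was at 173, 49.5, 101, 137, 241 and 239 RPKM in the libraries from E16.5 to P28. P1 was the lowest library and P14 and P28 the highest. Its slope of 0.27 ± 0.15 did not pass (adjusted p = 0.162, 0.0118 to 0.379 over its alternatives) and passed only without E16.5 among these (slope 0.57, adjusted p = 0.0118). Aldoa remained the larger by 112 times at E16.5 and 5.42 times at P28, and the share of Aldoc in aldolase RPKM went from 0.885% to 15.6%. Aldoa shares 6.57% of its 50-base stretches with 6 other genes, among them the retrogenes Aldoart1 and Aldoart2, and with both added its slope was 0.28 (adjusted p = 0.147) and the share of Aldoc at P28 was 13.1%.

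Eno2, the neuron-specific enolase, was at 5.14 RPKM before birth and then, library by library, at 7.42 (P1), 11.2 (P3), 25.97 (P7), 65.2 (P14) and 60.8 (P28). The values climb through P14, and P14 and P28 stand apart from the rest. Eno2 rose (slope 0.76 ± 0.08, adjusted p = 0.00149, 0.000933 to 0.00937 over its alternatives), higher in 4 of 5 steps, and P28 was 11.8 times E16.5. Eno1, the ubiquitous form, was at 37.4 RPKM at E16.5 and, in order from P1 to P28, at 26.2, 19.7, 20.8, 34.5 and 35.6 (slope 0.03, adjusted p = 0.831). Eno2 stood below Eno1 at E16.5 (0.137 times), P1 (0.283) and P3 (0.569) and above it at P7 (1.25), P14 (1.89) and P28 (1.71). Eno3, the muscle form, ranged from 4.31 to 9.49 RPKM.

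The level of Eno1 is uncertain. Of the 50-base stretches of its transcripts in GENCODE release M21, 49.5% also occur in another gene, most of them in Eno1b (listed under its older name Gm5506), and how reads with several matches were counted is not known from the sources used here. Gm5506 itself was at 14.7, 0.0893, 7.74, 0.0243, 0.0198 and 0.355 RPKM in the libraries from E16.5 to P28. It was high in 2 libraries and near 0 in the other 4. Adding it to Eno1 put Eno2 at 8.29% of enolase RPKM at E16.5, in place of 10.9%. At P7, P14 and P28 Gm5506 was at most 0.355 RPKM, so that adding it could not move the share there (60.5% at P14). Nor would it restore Eno1 reads that were left out of the count. Whether Eno2 truly exceeded Eno1 at those ages was therefore not tested. Eno2 shared 0.197% of its stretches, and Aldoc and Hk2 shared none. The shared enzymes Gapdh and Pgk1, usually abundant, were listed low: Gapdh was listed at 2.32 to 6.79 RPKM with 58.4% of its stretches shared, and Pgk1 at 2.59 to 4.95 RPKM with 68.0% shared.

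Ldha, the muscle-type subunit that favours making lactate, was at 119 RPKM before birth and then, library by library, at 39.6 (P1), 132 (P3), 135 (P7), 104 (P14) and 87.3 (P28). P1 was the low library and the other 5 lay within 87.3 to 135. No trend was called (slope 0.05 ± 0.14, adjusted p = 0.764), and the sign of the slope differed between alternatives. Ldhb, the heart-type subunit, was at 56.6 RPKM at E16.5 and, in order from P1 to P28, at 51.9, 26.7, 22.9, 22.2 and 23.7. E16.5 and P1 were high and the other 4 were low and close together. Ldhb fell (slope -0.28 ± 0.07, adjusted p = 0.0158, 0.00827 to 0.0880 over its alternatives), lower in 4 of 5 steps. The call was lost with both rescalings (adjusted p 0.0537 and 0.0522), with age in log2 days (0.0631), without E16.5 (0.0880) and without P14 (0.0522).

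Ldha exceeded Ldhb by 2.11 times at E16.5, was 0.763 times Ldhb at P1, and exceeded it by 4.94, 5.90, 4.68 and 3.68 times in the libraries from P3 to P28. Ldhb shares 20.99% of its 50-base stretches with 1 pseudogene, Gm5514, which was listed at 68.2, 51.4, 17.2, 14.6, 15.0 and 21.7 RPKM in the libraries from E16.5 to P28, near Ldhb itself at each age. With Gm5514 added, an alternative chosen after seeing the data, Ldhb still fell (slope -0.34, adjusted p = 0.0256), and Ldha held 48.9% of lactate dehydrogenase RPKM at E16.5 in place of 67.8% and 65.7% at P28 in place of 78.6%. Ldha shares 10.4% of its stretches with 14 pseudogenes, so that its level is uncertain as well. Ldhc, the testis form, was at or below 0.0496 RPKM, and Ldhd, which acts on the other mirror form of lactate, rose from 3.72 to 6.13 RPKM (slope 0.15, adjusted p = 0.0313, 0.0521 to 0.130 and not called without P1, P3, P7, P14 or P28).

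Between neighbouring ages the genes moved at different times. A gene was counted as higher or lower where log2(RPKM + 1) differed by at least 1 with the higher value at least 1 RPKM. From P1 to P3, 2 of 10 genes were higher (Ldha, 3.33 times, and Aldoa, 2.04 times), against 1.94% of all tested genes, and 0 of 10 were lower, against 3.52%. From P3 to P7, 3 of 10 were higher (Aldoc, Hk1 and Eno2), against 2.36%, and 0 of 10 lower, against 3.54%. From P7 to P14, 3 of 10 were higher (Hk2, 3.76 times, Aldoc, 3.50 times, and Eno2, 2.51 times), against 2.92%, and 0 of 10 lower, against 2.4%. From P14 to P28 only Hk2 was higher, 1 of 10 against 1.19%, and 0 of 10 were lower, against 0.53%. Aldoc and Eno2 were counted as higher in the 2 steps between P3 and P14, and Hk2 in the 2 steps between P7 and P28, after a fall from E16.5 to P1. Over the whole span from E16.5 to P28, 4 of 10 genes were higher (Hk1, Hk2, Aldoc and Eno2), against 11.3% of all tested genes, and 2 of 10 lower (Slc2a1 and Ldhb), against 21.9%.

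At P1 several of the 10 genes were low at once. Values were lower at P1 than at E16.5 by at least 1 log2 unit for Hk2 (0.206 times), Aldoa (0.286), Ldha (0.332) and Slc2a1 (0.394), 4 of 10 genes, where 2.23% of all tested genes were lower by as much, and 0 of 10 were higher, where 1.05% were. Slc2a1, Hk1, Hk2, Pfkm, Pfkp, Aldoa and Ldha, 7 of 10, were lower at P1 than at both E16.5 and P3, where 27.4% of all tested genes were. Hk2, Aldoa and Ldha, or 3 of 10, lay at least 0.5 log2(RPKM + 1) units below the nearer neighbour, where 2.08% of all tested genes did. Ldha lay 1.57 log2 units below, which ranked 7 of 15272, and Aldoa 1.01, which ranked 26. Aldoc, Eno2 and Ldhb had no such low point. Of the 58 other tested genes of the pathway, 27 were lower at P1 than at both neighbours and 7 by at least 0.5 log2 units. The lactate exporter Slc16a3, for example, went through 21.4, 2.30 and 9.67 RPKM from E16.5 to P3, and Pdk1, which inhibits pyruvate dehydrogenase, through 12.2, 2.89 and 8.11. E16.5 and P1 share the form of their library titles and P3 has the other. The step from P1 to P3 therefore cannot be told apart from the change of title form, whose part was not tested. Of the 6 pigment epithelium markers 4 (Ttr, Tyr, Pmel and Mlana) were likewise lower at P1 than at both neighbours, with Mlana listed at 0 at P1. Rpe65 (0.108, 0.122 and 0.0219 RPKM from E16.5 to P3) and Best1 (0.449, 0.692 and 0.274) were instead higher at P1 than at both. The list sum was 4.89, 1.63 and 5.43 RPKM from E16.5 to P3, and the part of these markers in the low P1 values was not tested. P1 was also the shallowest library, though P28 was nearly as shallow (12902000 and 12944000 estimated reads). With 1 library the P1 value cannot be checked against another retina of that age.

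**Figure D3:**
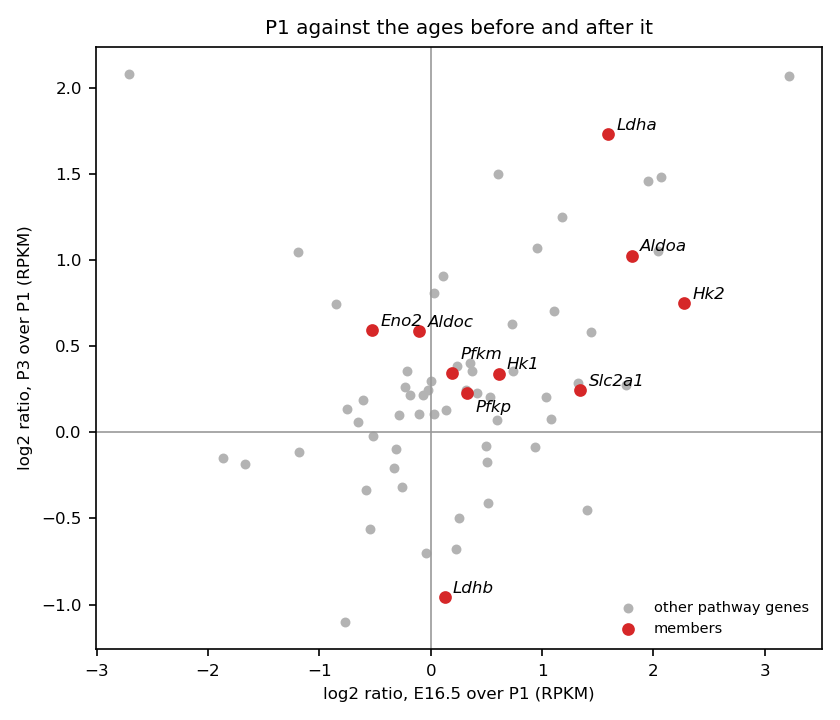
Log2 ratio of RPKM at E16.5 over P1 (x axis) against P3 over P1 (y axis) for the 10 genes (red) and the 58 other tested pathway genes (grey). Genes in the upper right are lower at P1 than at both neighbours; Ldha, Aldoa and Hk2 lie farthest out among the 10, while Ldhb lies below 0 on the y axis and Eno2 to the left of 0 on the x axis.

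The courses of the 10 genes were compared in pairs by a distance that also grows with a difference in the size of change. The most alike pair was Pfkm and Pfkp, whose centred log2(RPKM + 1) values differed by 0.17 (root mean square over the 6 libraries), followed by Slc2a1 and Ldhb (0.43), Aldoc and Eno2 (0.46) and Hk1 and Eno2 (0.51). The least alike were Slc2a1 and Aldoc (2.34). Across the whole table the nearest patterns were Cntfr (0.13) for Slc2a1, Cdk5r2 and Car14 (both 0.11) for Hk1, Gas6 (0.08) and Mlc1 (0.10) for Eno2, and Tnfsf12, Kcne2 and Ppm1n (all 0.13) for Aldoc. Wbp2 (0.05) was nearest to Pfkp, Nkpd1 (0.04) to Pfkm, Rpl21 (0.05) to Ldhb, and C130046K22Rik (0.19) to Ldha. The last 3 of these were low genes, whose changes come out too small on this scale. Nkpd1 was at 0.0285 (P1) to 1.27 RPKM (P14), Rpl21 at 0.733 (P28) to 3.21 (E16.5), and C130046K22Rik at 0.114 (P1) to 1.80 (P3). Others of the nearest genes began low as well: from E16.5 to P28 Kcne2 went from 0.142 to 17.4 RPKM, Ppm1n from 0.720 to 34.3 and Mlc1 from 0.518 to 12.2. For all of these, nearness does not mean an equal fold change. For Hk2 the nearest was Vax2os2 at 0.45, which went from 12.1 RPKM before birth to 51.0 at P28. For Aldoa it was Aldoart2 (0.23), a retrogene copy of Aldoa, so that shared reads cannot be told apart there. These are distances over 6 libraries that differ in age and depth, given as a description.

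Slopes were of the same sign within both forms of library title for 9 of the 10 genes. Within E16.5, P1 and P28, and within P3, P7 and P14, they were 0.88 and 1.70 for Aldoc, 0.68 and 1.22 for Eno2, 0.45 and 1.05 for Hk1, 0.13 and 0.43 for Pfkm, 0.56 and 0.65 for Hk2, -0.35 and -0.42 for Slc2a1, and -0.25 and -0.13 for Ldhb. For Ldha they were 0.02 and -0.17. With a term for the title form the counts were 4 genes that rose and 2 that fell, Hk2 being called and Pfkm not (adjusted p = 0.0558).

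**Figure D4:**
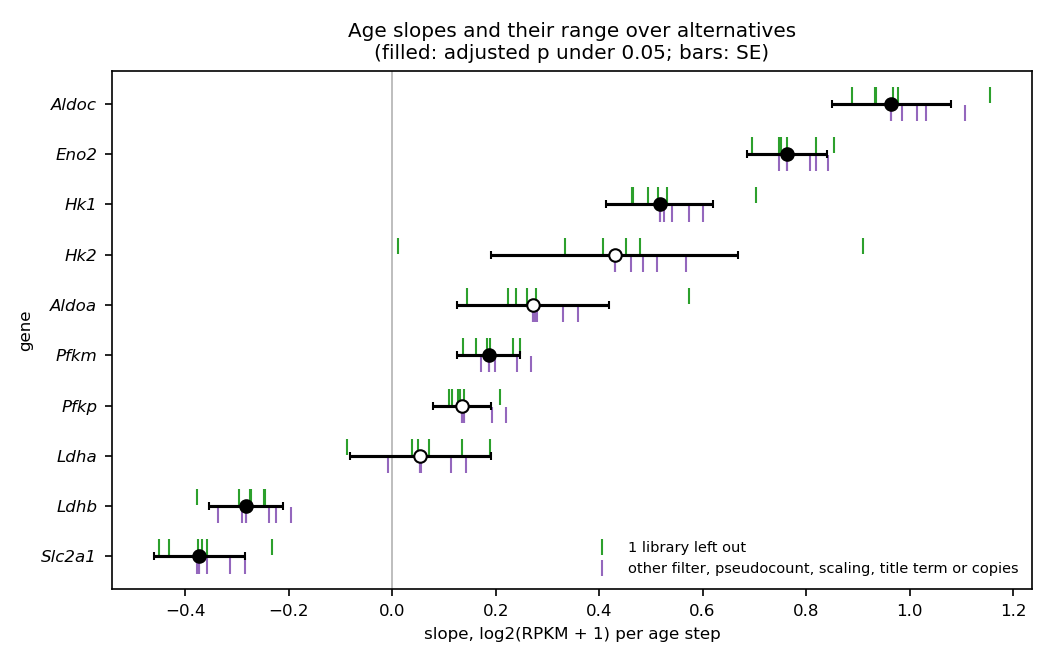
Slope over age order (x axis, log2 units per step) of each gene (y axis); black points with SE bars are the values as deposited, filled where the adjusted p was under 0.05, and ticks are alternatives, green with 1 library left out and purple with other settings (age in log2 days is on another scale and not drawn). Ticks of Aldoc, Eno2 and Hk1 stay above 0.46, those of Hk2 spread from 0.01 to 0.91, and those of Ldha fall on both sides of 0.

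Around the 10 genes, the wider pathway list held 71 further genes, of which 58 were tested, with a median slope of 0.02. Of the 58, 12 rose and 7 fell, where 15.2% and 29.9% of all tested genes did, and 39 did not pass. Nxnl1, Pfkfb2 and Epas1 were among the steepest of the 12 rises. Nxnl1, which encodes the rod-derived factor known to raise glucose uptake of cones through a complex of basigin and Slc2a1, rose from 0.398 RPKM before birth to 65.1 at P28 (slope 1.21 ± 0.12, adjusted p = 0.00149), and Bsg, basigin itself, from 28.9 to 54.5 (slope 0.25 ± 0.07, adjusted p = 0.0180). Pfkfb2, whose product makes and breaks down the activator of phosphofructokinase, rose from 3.00 to 38.0 RPKM (slope 0.74 ± 0.10, adjusted p = 0.00203), while Pfkfb3, with 10.4 at E16.5, 2.53 at P1 and 3.59 at P28, did not pass. The phosphatase Tigar, listed as 9630033F20Rik, rose from 3.39 to 10.3 RPKM (slope 0.37 ± 0.08, adjusted p = 0.00754).

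Of 7 genes of lactate and pyruvate transport 3 rose and 0 fell in limma, where 15.2% and 29.9% of all tested genes did. Each of the 3 calls was lost when certain single libraries were left out. Slc16a1, a transporter of lactate, was at 6.11 RPKM before birth and then, library by library, at 5.12 (P1), 3.63 (P3), 4.98 (P7), 29.8 (P14) and 29.2 (P28) (slope 0.51 ± 0.16, adjusted p = 0.0326). The 4 youngest libraries were all low and the 2 oldest high, and the call was lost with no low-value filter (0.0602) and without P1 (0.0816), P14 (0.0867) or P28 (0.165). Slc16a3 was above Slc16a1 at E16.5 (3.51 times), P3 (2.66) and P7 (1.10) and below it at P1 (0.449), P14 (0.167) and P28 (0.263). Bsg was not called without P1 (0.0526), P14 (0.0622) or P28 (0.0623), and the pigment epithelium transporter Slc16a8, which rose from 0.972 to 3.18 RPKM (slope 0.22, adjusted p = 0.0211), not without P1 (0.0620) or P28 (0.172).

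Among the shared enzymes of lower glycolysis 1 of 7 rose, where 15.2% of all tested genes did. It was Pgam1, from 2.15 to 15.0 RPKM (slope 0.47, adjusted p = 0.00973), with 41.5% of its stretches shared with pseudogenes. Its call was lost without P28 (adjusted p = 0.0592). The pyruvate kinase gene Pkm2, with 171 RPKM at E16.5, a low of 83.6 at P1 and 124 at P28, did not pass. Of 11 genes of pyruvate entry into mitochondria 2 fell, where 29.9% of all tested genes did. Pdha1, a subunit of pyruvate dehydrogenase, fell from 22.6 to 10.1 RPKM (adjusted p = 0.0247), and the pyruvate carboxylase Pcx from 9.43 to 3.57 (adjusted p = 0.00899). Of 11 regulators 3 rose and 4 fell, where 15.2% and 29.9% of all tested genes did. The 3 that rose were Nxnl1, the hypoxia-inducible factor Epas1 (1.77 to 18.2 RPKM, slope 0.59, adjusted p = 0.00149) and the coactivator Ppargc1a (1.05 to 6.45, slope 0.46, adjusted p = 0.00220). The 4 that fell were Myc (5.997 to 0.225 RPKM, slope -0.47), Mycn (40.5 to 2.48, slope -0.76), and the oxygen sensors Egln1 (60.5 to 18.8, slope -0.31) and Egln3 (3.87 to 0.781, slope -0.25), with adjusted p of 0.00178, 0.00191, 0.0107 and 0.0280. Without E16.5 the calls of Pcx (0.0515), Egln1 (0.0622) and Egln3 (0.215) were lost. Egln3 was also not called with no low-value filter (0.0527), the common total (0.0550), age in log2 days (0.0590) or without P14 (0.0832). Pdha1 was not called with either rescaling (0.0997 and 0.140), with age in log2 days (0.0515) or without E16.5 (0.121), P1 (0.0639) or P28 (0.0968).

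**Figure D5:**
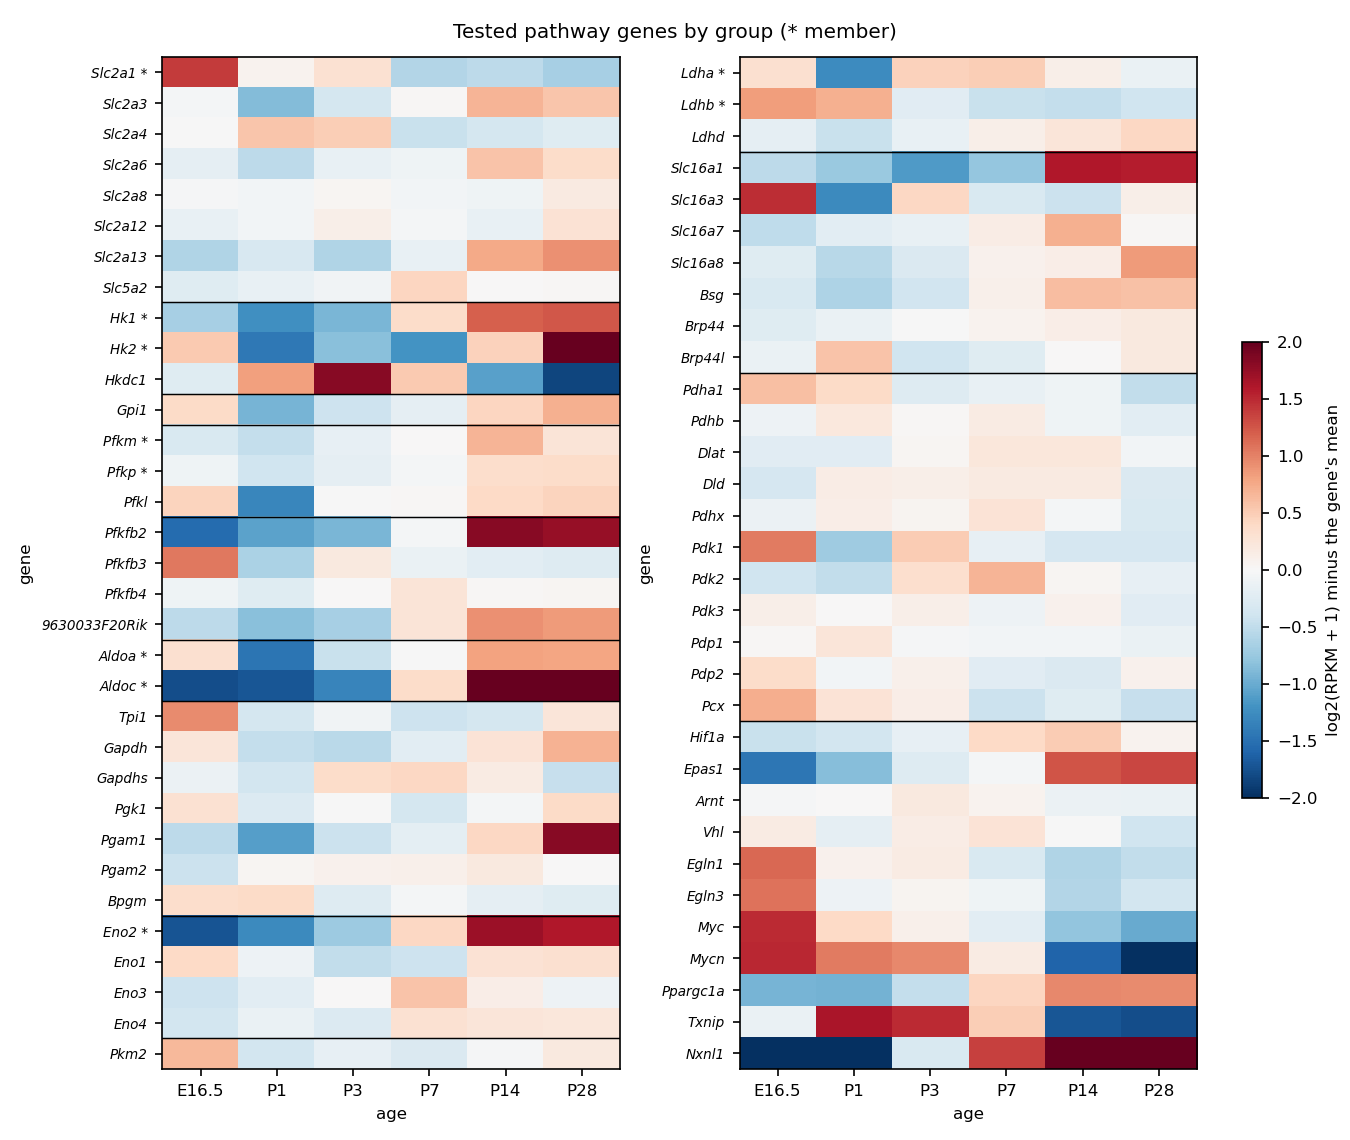
Log2(RPKM + 1) minus each gene's mean over the 6 libraries (colour, limited to -2 to 2) for tested genes of the pathway lists by age (of the hexokinase list Hk1, Hk2 and Hkdc1), with lines between gene groups and an asterisk at the 10 genes. Hk1, Aldoc, Eno2, Pfkfb2 and Nxnl1 turn from blue to red after P3, and Slc2a1, Myc and Mycn turn from red to blue.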

How the data were processed

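Messenger RNA of wild-type mouse retina was sequenced in 6 libraries, 1 per age. Per the labels' protocols, RNA was extracted with Trizol, selected on magnetic beads, copied to double-stranded cDNA, fragmented and built into libraries with a ChIP DNA kit. The authors deposited 1 table of RPKM values, per the file headers, with 30042 genes. The submitters' processing notes name bcl2fastq 2.17.1.14 and the genome build mm9. The aligner, counting tool, annotation, strand and handling of reads with several matches were not given in the sources used here. Of its sample columns 0 went unused.

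The scale was log2(RPKM + 1), on which changes of low genes come out too small. Genes with a highest value of at least 1 RPKM, 15272 in all, were fitted against age order by limma (version 3.58.1, R 4.3.3; lmFit, then eBayes with a mean trend), with two-sided p adjusted over all of them after Benjamini and Hochberg (4 residual degrees of freedom), and once with a quadratic term (3 residual degrees of freedom). The fit was tested on simulated data with known slopes. The p-values rest on how far the libraries of the ages lie from a line, and no spread between retinas of 1 age enters them. Alternatives were no filter, a filter of 5 RPKM, a pseudocount of 0.1, median-of-ratios rescaling, a common total without the 50 highest genes, age in log2 days after conception with birth at day 19, a term for the 2 forms of library title, and leaving out each library.

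Depth was estimated in Python 3.11.15 from the steps between low values and GENCODE M21 transcript lengths; of values under 0.3 RPKM, 31.2% to 36.4% were whole reads within 0.05, too few for a test on counts. Read numbers and counting errors of the 10 genes use the shortest transcript and cover counting error only. Shared sequence was the share of the 50-base stretches of a gene's coding transcripts that occur, on either strand, in transcripts of another gene; the sources used here do not state the read length. Promoters are RefSeq sequences of GRCm38.p6, another build than mm9, matched by gene ID. The 10 genes and all lists (pathway groups and cell markers) were chosen with earlier results of these data known. Named were the 10 genes, the other isozymes of their steps, called pathway genes and, for each of the 10, the genes among the 3 with the smallest root mean square difference in centred log2(RPKM + 1). Pdk1, Pkm2, Pfkfb3, Slc16a3, Gapdh, Pgk1 and the near-identical copies were named after their values were seen. Some genes of the lists are counted but not reported by name here. The sums over marker lists for cones, Muller glia, ganglion cells, vessels, pigment epithelium and astrocytes, beside those in the text, are given from the lowest to the highest library, whatever its age. They were 19.8 to 266, 100.4 to 380.2, 117 to 559, 16.7 to 57.8, 1.63 to 23.1 and 3.97 to 8.81 RPKM. The ganglion cell sum was highest at E16.5 and lowest at P3, and the vessel sum was highest at P3 and lowest at P28.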

Additional observations from a re-analysis of the deposited data

How the results depend on the processing

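Among all tested genes 2326 rose and 4571 fell (33.7% of calls upward). The split moved to 3110 and 3396 (47.8%) with median-of-ratios rescaling, which shifts all genes by between -0.10 (E16.5) and 0.19 (P28) log2 units, and to 3293 and 2668 (55.2%) with a common total without the 50 highest genes; a filter of 5 RPKM gave 1403 that rose. Leaving out 1 library gave 1538 to 2179 that rose and 2953 to 4247 that fell, the lowest of both without P14. Of the 10 genes 3 to 6 rose and 0 to 2 fell with 1 library left out, none falling without E16.5, where Hk2, Pfkp and Aldoa were called upward; with either rescaling or age in log2 days 1 fell, Slc2a1. Over the 68 tested pathway genes 16 rose and 9 fell, where 15.2% and 29.9% of all tested genes did. With 1 library left out 11 to 23 rose and 4 to 10 fell, and 5 fell with the common total. The calls of Hk1, Aldoc and Eno2 held in each of the 13 alternatives. The quadratic term called 0 genes in limma, 1 with age in log2 days, and 0 of the 10 genes in any setting. The slope of Ldha was -0.0073 with the title term and, over the fits that leave out a library, -0.088 (without P1) to 0.190 (without E16.5), that of Eno1 was -0.0051 without P14, -0.054 without P28, -0.053 with its copy added and up to 0.164 (without E16.5), and that of Slc16a3 ran from -0.324 (without P1) to 0.196 (without E16.5) against -0.142; the cause was not tested. Subtracting a 2% trace of E16.5 from P28 moved the P28 isozyme shares by less than a counting interval that took every transcript as 1 kb long. The largest move was that of Slc2a1, 63.0% to 61.2% of transporter RPKM. Its transcript has 3260 bases, so that its interval was too wide and the comparison does not settle whether its move exceeds counting error. No paired analysis was possible because each age has 1 library. Depth limits Aldoc at E16.5 and P1, the values with the fewest reads.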
